A study of Mus musculus with 6 samples.

Results

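The secreted Wnt antagonists examined here were Sfrp1, Sfrp2, Sfrp4, Sfrp5, Frzb, Wif1, Dkk1, Dkk2, Dkk3 and Sost, 10 genes that were listed by name. All probe sets whose platform annotation gave exactly 1 gene symbol, and gave one of these 10, were taken, which gave 19 probe sets out of 34945 with 1 gene symbol and 45101 in all. The RNA came from bone marrow of 3 Grem1;TdTomato mice on a C57BL/6J background, aged 6 to 8 weeks and given tamoxifen by mouth. Cells of each mouse were split into Grem1+ cells, for which the only description is a sort on Grem1, and Grem1- cells, and Affymetrix arrays were run on both, so that 3 Grem1+ arrays faced 3 matched Grem1- arrays. The Grem1- cells were non-recombined and gated as lacking CD45, CD31 and Ter-119, and no such gate is stated for Grem1+. Both fractions thus carried the same reporter genotype and had the same tamoxifen exposure. How the reporter allele drives recombination is not given in the sources used here.

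Wnt proteins signal by binding a Frizzled receptor together with the co-receptors LRP5 and LRP6, which stabilises beta-catenin and lets it act with TCF and LEF factors in the nucleus. Secreted antagonists stop this outside the cell at different points. The secreted frizzled-related proteins, with Frzb among them, and Wnt inhibitory factor 1 bind Wnt proteins themselves, whereas Dkk1, Dkk2 and sclerostin occupy the co-receptors. In the skeleton, Frzb and Wif1 are known from cartilage, Dkk1 and sclerostin from bone, and sclerostin is made chiefly by osteocytes.

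Several properties of the arrays touch every comparison. The values are log2 expression values, with array medians of 3.74 to 3.81, and a value below log2 4 is called dim here, a chosen limit and not a measured detection limit. Ptprc is the gene of CD45. Its brighter probe set stood at 7.29, 9.61 and 10.56 in Grem1+ and at 12.13, 11.78 and 12.37 in Grem1-. Its other probe set was dim in Grem1+, at 2.53, 3.30 and 3.71, and stood at 9.38, 8.37 and 8.81 in Grem1-. The brighter one differed by -2.94 (limma adjusted p = 0.0603) and the other by -5.67 (limma adjusted p = 0.0106). The Grem1- values of both go against the CD45-negative gate stated for Grem1-, while the level in Grem1+ depends on the probe set. Grem1 itself stood at 4.49, 4.14 and 8.61 in Grem1+ and at 3.69, 3.75 and 3.70 in Grem1-, and this difference of 2.04 with an SE of 1.02 missed the threshold (limma adjusted p = 0.245). The labels record male animals. Xist, which the inactive X chromosome transcribes, was nonetheless at 10.60 in the Grem1+ and 11.04 in the Grem1- fraction of mouse 3 and at most 2.99 on the other 4 arrays, so results are also given without mouse 3. For the Gapdh control, the excess of the 3' over the 5' probe set, which grows when RNA is shortened, averaged 3.58 ± 0.51 on Grem1+ arrays and 2.66 ± 0.34 on Grem1- arrays (SD of log2 values, n = 3 each), and its part in the results was not tested. For the actin control the same excess ran the other way, at 0.09 ± 0.11 on Grem1+ arrays and 0.16 ± 0.02 on Grem1- arrays (SD of log2 values, n = 3 each). In bulk RNA of this kind, fewer cells of a type and less RNA per cell cannot be told apart.

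The comparison asked which of these antagonists distinguish Grem1+ marrow cells from the Grem1- cells of the same mice. Wif1, on its only probe set, was higher in Grem1+ by at least 43.8-fold. Frzb was higher by at least 42.1-fold on 1 of its 2 probe sets, while the other was too dim for the test. Dkk3 was higher by 2.67 on the log2 scale (SE 0.45) on 1 of its 2 probe sets, and the other did not pass. No member passed the test as lower. Sfrp1, Dkk1 and Dkk2 were near or below the dim limit in both fractions, and Sost lay flat around it. Sfrp2, Sfrp4 and Sfrp5 were measurable on some arrays but differed among mice, and none of them passed the test.

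The test was limma with the mouse as a block, run on all 18157 named probe sets above log2 4 on at least 3 of the 6 arrays, with Benjamini-Hochberg adjustment over all 18157 and a threshold of 0.05. In it, 10.1% of probe sets were called higher and 7.76% lower in Grem1+, or 17.8% in either direction. Of the 19 member probe sets, 8 entered the test, 3 were called higher and 0 lower, while 4 of the 8 had an unadjusted limma p under 0.05, against 35.0% of all tested probe sets. Frzb, Wif1 and one Sfrp5 probe set entered through Grem1+ arrays alone, so that they had to be higher there to be tested. Among the 704 probe sets with no Grem1- array above log2 4 that entered the test, 59.1% were called higher. Without the filter, 2 member probe sets were called higher, against 3.13% of all named probe sets. The other 11 member probe sets stayed outside it, and 8 of them were dim on all 6 arrays. Over all 19, whether tested or not, 15 differences were positive with a median of 0.19, against 53.8% positive and a median of 0.03 over all named probe sets. The arrays of the groups did not overlap for 8 of the 19, all higher in Grem1+, against 17.2% of all named probe sets higher and 13.9% lower by that rule. Several members have more than 1 probe set, so these counts are not of independent items.

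**Figure D1:**
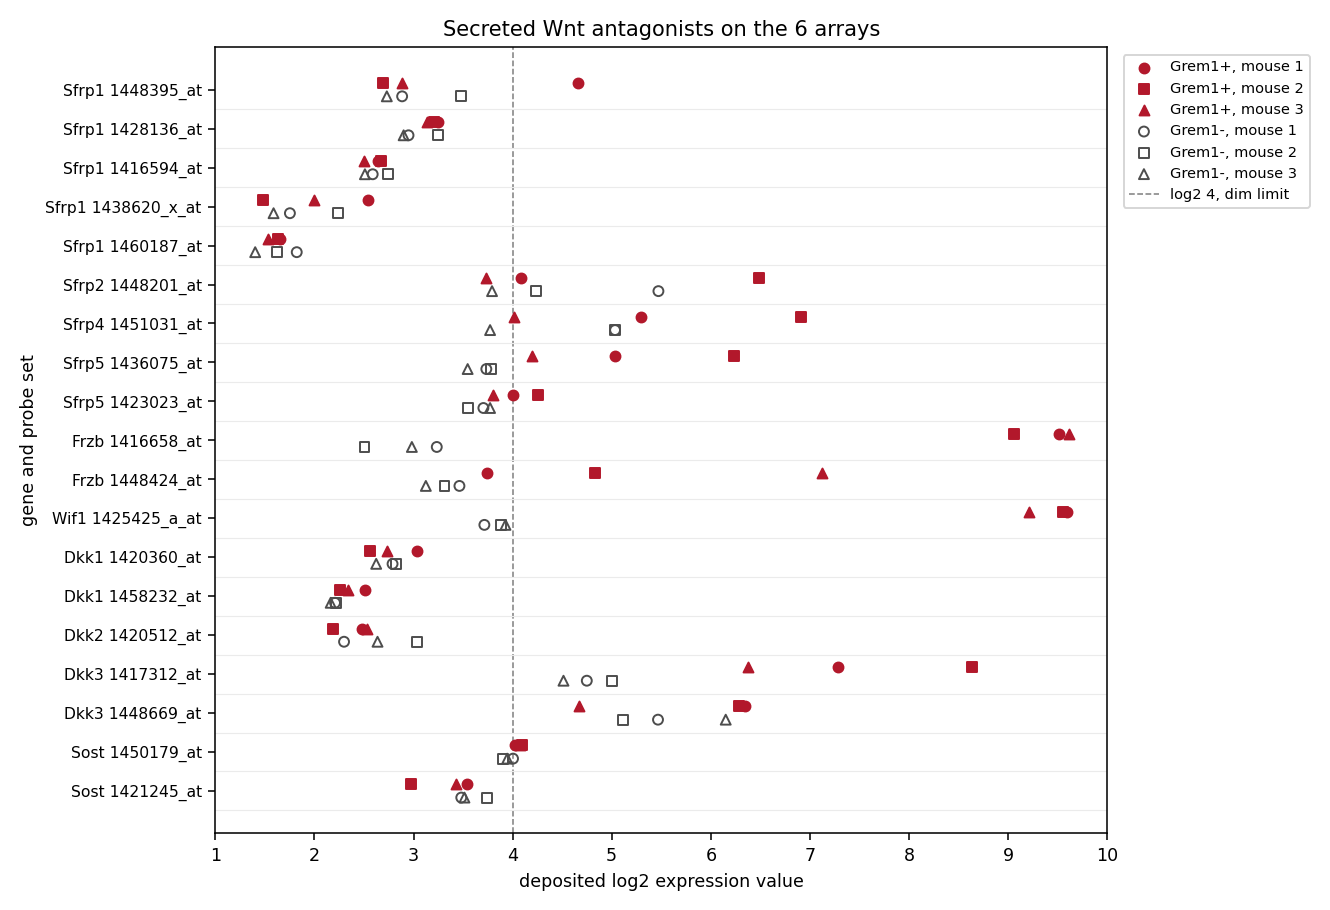
Deposited log2 value (horizontal axis) of every member probe set (rows) on each array, with Grem1+ as filled red symbols above Grem1- as open grey symbols, 1 symbol shape per mouse, and a dashed line at the dim limit of log2 4. Frzb 1416658_at lies between 9.06 and 9.61 and Wif1 between 9.21 and 9.60 in Grem1+, with all their Grem1- arrays below the line, while the Sfrp1, Dkk1 and Dkk2 rows lie below it except for 1 Grem1+ array of Sfrp1.

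Frzb encodes secreted frizzled-related protein 3, which binds Wnt proteins through a cysteine-rich domain like that of the Frizzled receptors. Its brighter probe set, 1416658_at, stood at 9.51, 9.06 and 9.61 in Grem1+ and at 3.23, 2.51 and 2.98 in Grem1-. All 3 Grem1+ arrays lay far above all 3 Grem1- arrays, and the values within each fraction lay close together. The difference as measured was 6.49 (SE 0.28, 95% confidence interval 5.72 to 7.25, limma adjusted p = 0.00989). Since every Grem1- array was dim, the fold change is given as a bound, with the Grem1- arrays set to log2 4, and it was at least 42.1-fold. The difference was 6.28, 6.56 and 6.63 in mice 1, 2 and 3 and 6.42 without mouse 3.

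The other Frzb probe set, 1448424_at, is annotated to the same sequence record but gave a different picture. It stood at 3.74, 4.83 and 7.12 in Grem1+ and at 3.46, 3.31 and 3.12 in Grem1-. The Grem1+ array was above its Grem1- partner in each mouse, but the gap was 0.28 in mouse 1 and 3.998 in mouse 3. With only 2 of the 6 arrays above log2 4 this probe set was not part of the test. In the fit without the filter on dim probe sets its difference of 1.93 did not pass (limma adjusted p = 0.314). Leaving out mouse 3 gave 0.90.

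Wif1 encodes Wnt inhibitory factor 1, a secreted protein whose WIF domain binds Wnt proteins. Its only probe set, 1425425_a_at, stood at 9.60, 9.56 and 9.21 in Grem1+ and at 3.71, 3.89 and 3.93 in Grem1-. As for Frzb, the fractions were far apart and every Grem1- array was dim. The difference as measured was 5.61 (SE 0.30, 95% confidence interval 4.80 to 6.42, limma adjusted p = 0.00989), or at least 43.8-fold. Leaving out mouse 3 gave 5.78. By its suffix this probe set may also recognise other transcripts of the gene.

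The promoters of Frzb and Wif1 are shown because these genes were set apart furthest between the fractions. They are RefSeq sequences on build GRCm38.p6, from 250 bases before to 50 after the start of the gene, read 5′ to 3′ along the gene's strand. The capitals mark the core letters CTTTGA of sites read by TCF and LEF factors, and the GC box GGGCGG, each on either strand, so that a match on the strand not printed appears as its reverse complement.
Frzb, chr2:80447347-80447646, minus strand: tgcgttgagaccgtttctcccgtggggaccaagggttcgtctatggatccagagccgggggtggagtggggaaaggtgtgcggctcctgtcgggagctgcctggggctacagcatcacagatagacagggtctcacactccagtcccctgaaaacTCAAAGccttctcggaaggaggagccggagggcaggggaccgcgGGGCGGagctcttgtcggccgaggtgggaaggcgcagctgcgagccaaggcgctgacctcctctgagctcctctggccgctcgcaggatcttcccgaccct
Wif1, chr10:121033754-121034053, plus strand: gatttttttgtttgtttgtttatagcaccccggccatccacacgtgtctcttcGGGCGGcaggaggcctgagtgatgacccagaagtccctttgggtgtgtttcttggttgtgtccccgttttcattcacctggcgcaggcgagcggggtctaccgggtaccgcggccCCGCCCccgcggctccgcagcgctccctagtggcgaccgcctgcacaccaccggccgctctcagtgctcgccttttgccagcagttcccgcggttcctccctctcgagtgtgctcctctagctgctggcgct

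The Frzb window held 1 match to the TCF and LEF core and 1 GC box, and the Wif1 window held 2 GC boxes and no match to that core. On either strand, the core CTTTGA occurs in 16.0% and the GC box in 35.7% of the 32851 promoters in the table. Both windows were rich in G and C, at 64.7% for Frzb and 63.0% for Wif1, against a median of 52.7% over all promoters. Of the 10 members 7 had a promoter in the table, and among those only Frzb and Dkk1 held CTTTGA, which Dkk1 held at 2 places while its probe sets were dim on all 6 arrays. The letters CTTTGT on either strand, which SOX factors and TCF factors can both read, occurred in 2 of the 7 windows, those of Dkk1 and Dkk2, and in 18.7% of all promoters. The SOX letters ACAATG on either strand occurred in 0 of the 7 and in 12.6% of all. The motifs do not overlap one another in the printed windows, and a match is a run of letters and not a measured site.

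The other secreted frizzled-related proteins did not follow Frzb. Sfrp2, which also binds Wnt proteins, stood at 4.08, 6.49 and 3.73 in Grem1+ and at 5.47, 4.23 and 3.79 in Grem1- on its only probe set. The fractions overlapped, and the Grem1+ value was lower than its partner in mice 1 and 3 and higher in mouse 2. The difference of 0.27 had a 95% confidence interval from -1.84 to 2.37 (limma adjusted p = 0.850), which leaves room for changes of either sign.

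Sfrp4 stood at 5.29, 6.91 and 4.01 in Grem1+ and at 5.03, 5.04 and 3.77 in Grem1-. The fractions overlapped here too, although each Grem1+ value was above its partner, by 0.26, 1.87 and 0.24 in mice 1, 2 and 3. The difference of 0.79 (95% confidence interval -0.46 to 2.04, SE 0.46) missed the threshold (limma adjusted p = 0.305).

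Sfrp5 has 2 probe sets. The brighter one, 1436075_at, stood at 5.04, 6.23 and 4.19 in Grem1+ and at 3.73, 3.79 and 3.55 in Grem1-. The fractions did not overlap, but every Grem1- array was dim and the Grem1+ arrays spread widely. The difference of 1.46, with an SE of 0.45, missed the threshold (limma adjusted p = 0.0998), and as a bound it was at least 2.22-fold. Its other probe set, 1423023_at, lay at 4.001, 4.25 and 3.799 in Grem1+ and at 3.71, 3.55 and 3.77 in Grem1-, close to the dim limit throughout, and was not part of the test.

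Sfrp1 was dim on 4 of its 5 probe sets on all arrays. The exception, 1448395_at, stood at 4.66, 2.69 and 2.89 in Grem1+ and at 2.89, 3.48 and 2.73 in Grem1-, so that a single Grem1+ array, that of mouse 1, lay above the limit. The 5 differences ran from -0.01 to 0.38, and none entered the test. At these levels a difference in Sfrp1 was not detectable.

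Among the Dickkopf proteins, Dkk3 was the one with signal in both fractions. Dkk3 is a divergent member of that family whose action on LRP co-receptors is not settled. Its probe set 1417312_at stood at 7.28, 8.63 and 6.37 in Grem1+ and at 4.75, 5.002 and 4.51 in Grem1-. Every array of both fractions was above the dim limit, the fractions did not overlap, and the Grem1+ arrays spread more than the Grem1- arrays. The difference was 2.67 (SE 0.45, 95% confidence interval 1.47 to 3.88, limma adjusted p = 0.0287), with 2.53, 3.63 and 1.86 in mice 1, 2 and 3 and 3.08 without mouse 3. Without the filter on dim probe sets this call was lost (limma adjusted p = 0.0656).

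The other Dkk3 probe set, 1448669_at, is annotated to the same sequence record and showed no such difference. It stood at 6.34, 6.28 and 4.67 in Grem1+ and at 5.47, 5.11 and 6.15 in Grem1-. The fractions overlapped, with Grem1+ above its partner in mice 1 and 2 by 0.88 and 1.17 and lower by 1.48 in mouse 3, where the difference was -1.48. The mean difference of 0.19 (95% confidence interval -1.53 to 1.91) did not pass (limma adjusted p = 0.873). Leaving out mouse 3 gave 1.02. The Dkk3 call therefore rests on 1 of 2 probe sets.

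Dkk1 and Dkk2, which bind LRP5 and LRP6 and block canonical signalling, were dim on all arrays. Dkk1 lay between 2.56 and 3.03 in Grem1+ and between 2.62 and 2.82 in Grem1- on 1420360_at. On 1458232_at it lay between 2.26 and 2.51 in Grem1+ and between 2.16 and 2.22 in Grem1-, which did not overlap but differed by only 0.17. Dkk2 stood at 2.48, 2.19 and 2.53 in Grem1+ and at 2.30, 3.04 and 2.64 in Grem1-. None of these probe sets entered the test.

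Sost, the gene of sclerostin, lay near or below the dim limit on both probe sets, and the one that was tested did not pass. On 1450179_at it stood at 4.03, 4.10 and 4.08 in Grem1+ and at 4.004, 3.90 and 3.95 in Grem1-, nearly flat at the dim limit, with a difference of 0.12 (95% confidence interval -0.63 to 0.86, limma adjusted p = 0.810). On 1421245_at it was dim everywhere, at 3.54, 2.98 and 3.43 in Grem1+ and 3.48, 3.74 and 3.51 in Grem1-. Of 6 osteocyte markers read beside it, Mepe and Fgf23 were dim on all 6 arrays, and among the 4 in the test 1 passed, Ackr3, a chemokine receptor that other stromal cells also express, which was higher, and 0 were lower.

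**Figure D2:**
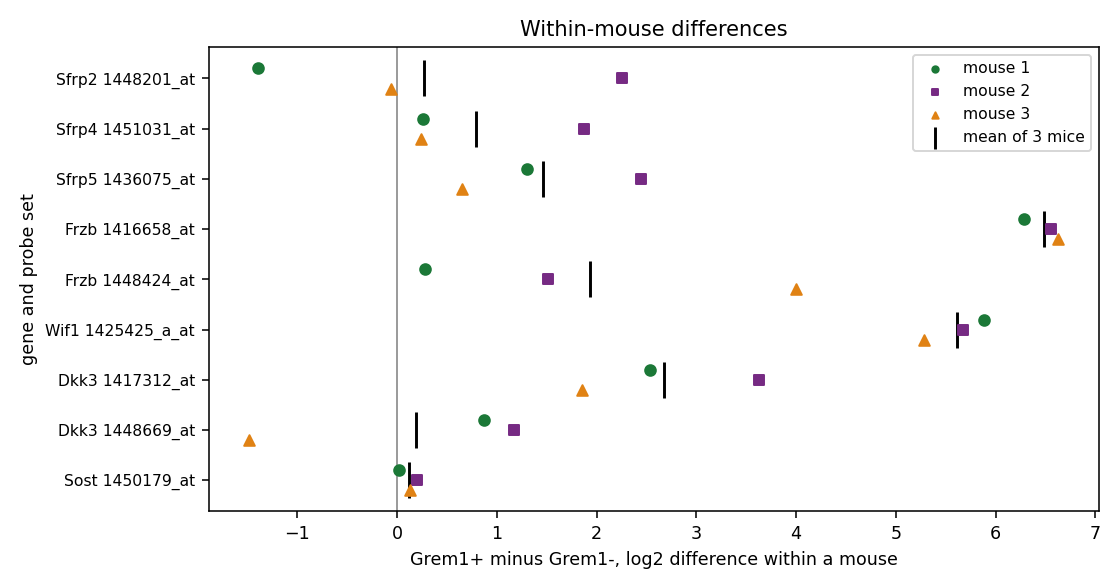
Grem1+ minus Grem1- log2 difference within each mouse (green circle, purple square and orange triangle for mice 1, 2 and 3) and its mean over the 3 mice (black bar) for the 8 tested member probe sets and the other Frzb probe set. The 3 mice lie within 6.28 to 6.63 for Frzb 1416658_at and within 5.28 to 5.88 for Wif1, whereas Sfrp2 runs from -1.39 to 2.26.

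Some member probe sets followed one order among the Grem1+ arrays, which was noticed after their values were seen. For Sfrp2, Sfrp4, both probe sets of Sfrp5 and Dkk3 1417312_at the Grem1+ array of mouse 2 was the highest of all 6, and that of mouse 3 was the lowest of the 3 Grem1+ arrays. Other probe sets of middling level did not follow it, since Frzb 1448424_at was highest on the Grem1+ array of mouse 3 and Dkk3 1448669_at on that of mouse 1. Over the 19 member probe sets, the Grem1+ arrays of mice 1, 2 and 3 held the highest value for 6, 6 and 2, against 26.6%, 18.8% and 11.6% of all named probe sets. Markers of other stromal cells varied among these arrays too, and not all in one way. Of 7 tested fibroblast and tendon markers 4 were higher and 0 lower in Grem1+, and 5 of the 8 listed were highest on the Grem1+ array of mouse 2. Their summed level was 12.84, 13.38 and 12.69 (log2) on the Grem1+ arrays of mice 1, 2 and 3 and 11.15 to 11.95 on the Grem1- arrays. The marker counts go by the brightest probe set of each gene. A dimmer tested probe set of Col3a1 was called lower, with a difference of -2.24. Of 6 tested marrow niche markers 1 was higher and 0 lower, and 4 of the 9 listed were highest on that array. Their summed level was 10.17, 11.36 and 9.75 in Grem1+ and 8.91 to 9.53 on the Grem1- arrays, although Vcam1, an adhesion molecule of this list, stood at 3.01, 6.90 and 5.88 in Grem1+ and at 7.87, 9.03 and 7.51 in Grem1- (limma adjusted p = 0.0685). Of 5 tested smooth muscle and pericyte markers 1, Cspg4, was higher and 0 were lower. By count, 5 of the 7 listed were highest on the Grem1+ array of mouse 2. The summed level of the 7 was 11.84, 11.68 and 11.05 in Grem1+, highest on the array of mouse 1. It was 9.67 to 10.37 on the Grem1- arrays. Cspg4, the brightest of the 7 on each Grem1+ array, stood at 11.23, 11.39 and 10.43 there and at 4.64, 6.26 and 5.96 in Grem1-. Rgs5 differed by -0.55 and was not called. Of these lists, Scx, Kitl and Cnn1 were dim on all arrays. The part of these markers in the values of Sfrp2, Sfrp4, Sfrp5 and Dkk3 was not tested.

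Frzb 1416658_at and Wif1 did not share that order. Of 15 chondrocyte markers, all in the test, 14 were higher and 0 lower, and their median level was 11.05, 11.06 and 11.00 in Grem1+ and 5.72, 6.90 and 7.14 in Grem1-. Their summed level was 15.22 to 15.42 (log2) in Grem1+ and 12.25 to 12.73 in Grem1-, and none was dim on all arrays. Of these 15 markers, 4, 8 and 3 were highest on the Grem1+ arrays of mice 1, 2 and 3. Sox9, the master regulator of cartilage, stood at 10.74, 10.96 and 10.73 in Grem1+ and at 5.29, 6.90 and 6.51 in Grem1-. The 1 chondrocyte marker that was not called, Col2a1, was high in both fractions. It stood at 11.68, 12.58 and 11.85 in Grem1+ and at 11.35, 11.84 and 11.37 in Grem1-, a difference of 0.52 (limma adjusted p = 0.284). Of 6 osteoblast markers analysed here, 5 were higher and 0 lower, with summed levels of 11.99 to 12.45 on the Grem1+ arrays and 10.53 to 10.64 on the Grem1- arrays. Of 12 pan-haematopoietic markers, 9 were lower and 0 higher in Grem1+, with summed levels of 12.13 to 13.14 in Grem1+ and 14.62 to 14.72 in Grem1-. The called chondrocyte and osteoblast markers moved in the direction of Frzb and Wif1, and the called pan-haematopoietic markers in the opposite one. The part of these lists in the differences of Frzb and Wif1 was not tested.

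**Figure D3:**
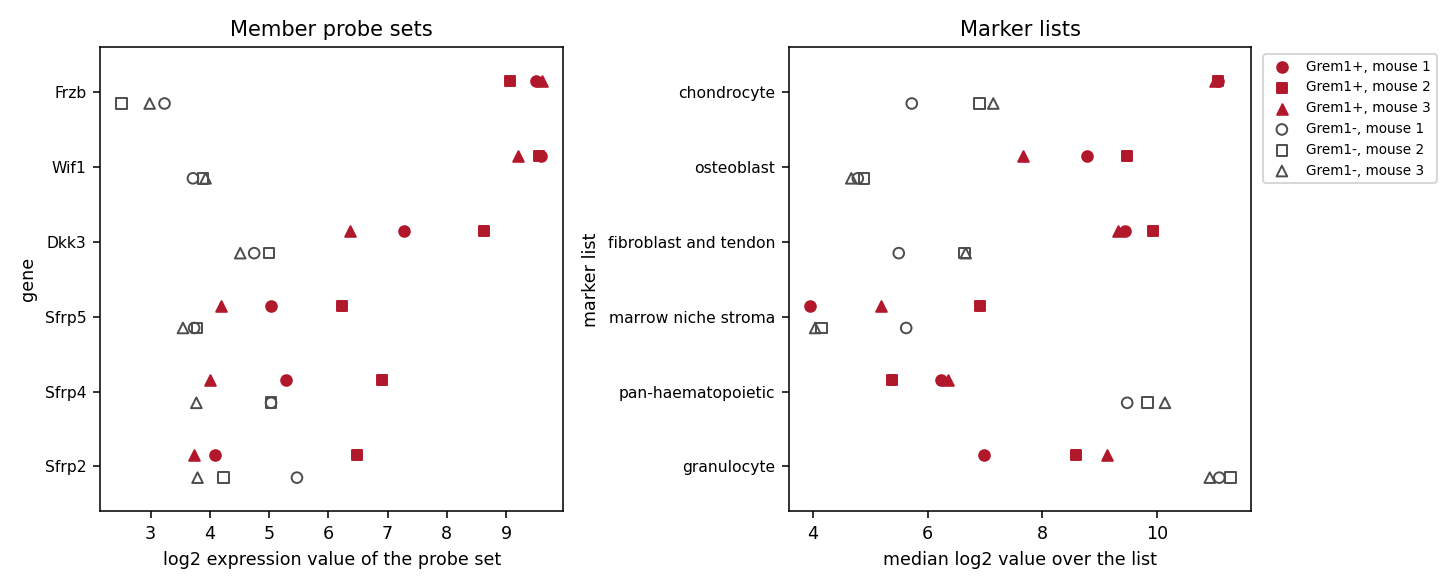
Left, log2 value of 6 member probe sets (the brightest of each gene); right, median log2 value over the genes of 6 marker lists, both on each array with Grem1+ as filled red symbols above Grem1- as open grey symbols and 1 shape per mouse. The chondrocyte median lies at 11.00 to 11.06 on the Grem1+ arrays. The Grem1+ array of mouse 2 is highest for Dkk3, Sfrp5, Sfrp4 and Sfrp2. It is also highest for the osteoblast, fibroblast and tendon, and niche stroma medians, and narrowly for the chondrocyte median.

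The genes whose profiles over the 6 arrays lay nearest to a called member were found among 10131 other genes in the test, as the smallest root mean square distance between log2 values centred on each gene's own mean. Nearest to Wif1 were Slc1a1, a glutamate transporter, at a distance of 0.10, Matn1, a cartilage matrilin, at 0.16, and the chemokine Cxcl14 at 0.18, against a median distance of 2.82. Nearest to Frzb were Neo1, the receptor neogenin, at 0.25, Fam13c at 0.35 and Lmo7 at 0.36, against a median of 3.26. Nearest to Dkk3 were Exoc6b at 0.19, Fmn1 at 0.19 and Ror1, a Wnt receptor, at 0.30, against a median of 1.56. The 6 arrays are 2 fractions of the same 3 mice, so these distances are a description only.

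Other genes of the Wnt pathway were read from lists of ligands, receptors, co-receptors, R-spondin receptors, further inhibitors, intracellular components and feedback targets. Of 75 such genes analysed here, 43 entered the test, 8 were called higher and 0 lower, and 24 were dim on all 6 arrays. Counted by the brightest probe set of each gene, 11.1% of all genes tested were higher and 7.82% lower, against 18.6% higher in the lists. Of the 8 called genes, Fzd2, Ror1, Lgr6 and Rspo4 entered the test through Grem1+ arrays alone, so that they had to be higher there to be tested, and these were the 4 such genes in the lists. The share in the lists is therefore a description and no support for a shift. The median difference of the 43 was 0.70, against 0.04 over all genes tested. It includes the same 4 genes and is likewise a description only. With no filter on low values 1 of the 8, Tpbg, was still called (limma adjusted p = 0.0210). Without mouse 3, 6 genes were called without the mouse block and 0 with it, while 13 had an unadjusted limma p under 0.05 with it.

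Of 19 Wnt ligands, 8 entered the test and 0 were called in either direction, while 1 had an unadjusted limma p under 0.05. This was Wnt5b, a ligand of growth plate cartilage, at 4.59, 7.63 and 7.81 in Grem1+ and at 3.72, 4.22 and 5.91 in Grem1-, with a difference of 2.06 (SE 0.57, limma adjusted p = 0.0797). Wnt9a, a ligand of joint tissue, differed by 0.87 (SE 0.33, limma adjusted p = 0.147). Of the genes of Wnt secretion, Wls, the carrier of Wnt proteins to the cell surface, was the only one tested and differed by 2.39 (SE 0.90, limma adjusted p = 0.148), with 0 called and 0 at an unadjusted p under 0.05.

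The frizzled-related proteins resemble the ligand-binding part of the Frizzled receptors. Of 9 tested Frizzled and other Wnt receptors, 3 were higher and 0 lower, with a median difference of 1.68. Over all 14 listed, tested or not, the median was 0.89. Fzd7 stood at 9.81, 8.39 and 8.55 in Grem1+ and at 4.49, 6.37 and 3.92 in Grem1-, a difference of 3.99 (SE 0.74, limma adjusted p = 0.0351). Fzd2 stood at 6.98, 5.81 and 5.54 in Grem1+ and was dim in every Grem1- sample, which puts it at least 4.31-fold higher (limma adjusted p = 0.0294, and 0.0648 without the filter). Ror1, a receptor of Wnt5a, was at least 2.85-fold higher (limma adjusted p = 0.0284, and 0.0709 without the filter), and with values below log2 4 set to 4 it did not pass (limma adjusted p = 0.154). Dimmer probe sets of Ror2 and Ryk were called higher, by 4.34 and 1.80. Their brightest probe sets differed by 1.98 and 1.44 and did not pass (limma adjusted p = 0.0561 and 0.117).

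The co-receptors are where Dkk1, Dkk2 and sclerostin act. Of 3 tested, 1 was higher and 0 lower, with a median difference of 1.45, or 0.79 over the 4 with a probe set. Lrp6 stood at 10.46, 9.69 and 9.54 in Grem1+ and at 7.25, 7.06 and 8.42 in Grem1-, a difference of 2.32 (SE 0.51, limma adjusted p = 0.0492). This call was just within the threshold and was lost with values below log2 4 set to 4 (limma adjusted p = 0.0509). The other tested probe set of Lrp6 differed by 1.85 and was not called. For R-spondins and their receptors and ligases the median difference was 2.37 over the 5 tested genes and 0.31 over all 9 listed. Of the 5 tested, 2 were higher and 0 lower. These were Lgr6, an R-spondin receptor, at least 7.80-fold higher on the brighter of its 2 tested probe sets (limma adjusted p = 0.0232, and 0.0604 without the filter), and Rspo4, an R-spondin that strengthens Wnt signalling, at least 4.12-fold higher (limma adjusted p = 0.0279, and 0.0583 without the filter).

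Among 3 other tested inhibitors, Tpbg was higher and 0 were lower, with a median difference of 0.85, or 0.12 over all 8 listed. Tpbg encodes a membrane glycoprotein described as a Wnt inhibitor in zebrafish, and stood at 11.61, 11.51 and 11.23 in Grem1+ and at 5.36, 5.31 and 5.86 in Grem1-. Its difference was 5.94 (SE 0.34, limma adjusted p = 0.00989). The differences of its 3 tested probe sets ranged from 4.29 to 7.31, and 2 of the 3 were called. The secreted inhibitors Sostdc1, Dkkl1, Notum, Cer1 and Draxin were dim on all arrays.

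Downstream of the receptors, of 12 tested intracellular components 1 was higher and 0 lower, with a median of 0.32, namely the TCF factor Tcf7l2, at 6.81, 9.56 and 7.94 in Grem1+ and 4.44, 5.65 and 5.76 in Grem1-, a difference of 2.82 (SE 0.47, limma adjusted p = 0.0280). The other tested probe set of Tcf7l2 differed by 1.39 and was not called. Single dimmer probe sets of other genes in this list were called, that of Ctnnb1, the gene of beta-catenin, as higher by 1.66 and that of the kinase gene Csnk1a1 as lower with a difference of -1.57, while their brightest probe sets were not. Of 5 tested feedback targets, genes that canonical signalling induces, 0 were called in either direction by limma and 1 had an unadjusted p under 0.05, with a median of 0.31. Lef1, at 8.37, 6.80 and 7.63 in Grem1+ and 7.92, 6.84 and 7.06 in Grem1-, differed by 0.33 (SE 0.30, limma adjusted p = 0.508), and Apcdd1, a membrane-bound inhibitor, by 0.85 (SE 0.31, limma adjusted p = 0.135). Axin2, a widely used readout of canonical signalling, lay close to the dim limit, at 4.50, 4.39 and 4.56 in Grem1+ and 4.36, 4.001 and 4.44 in Grem1-.

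**Figure D4:**
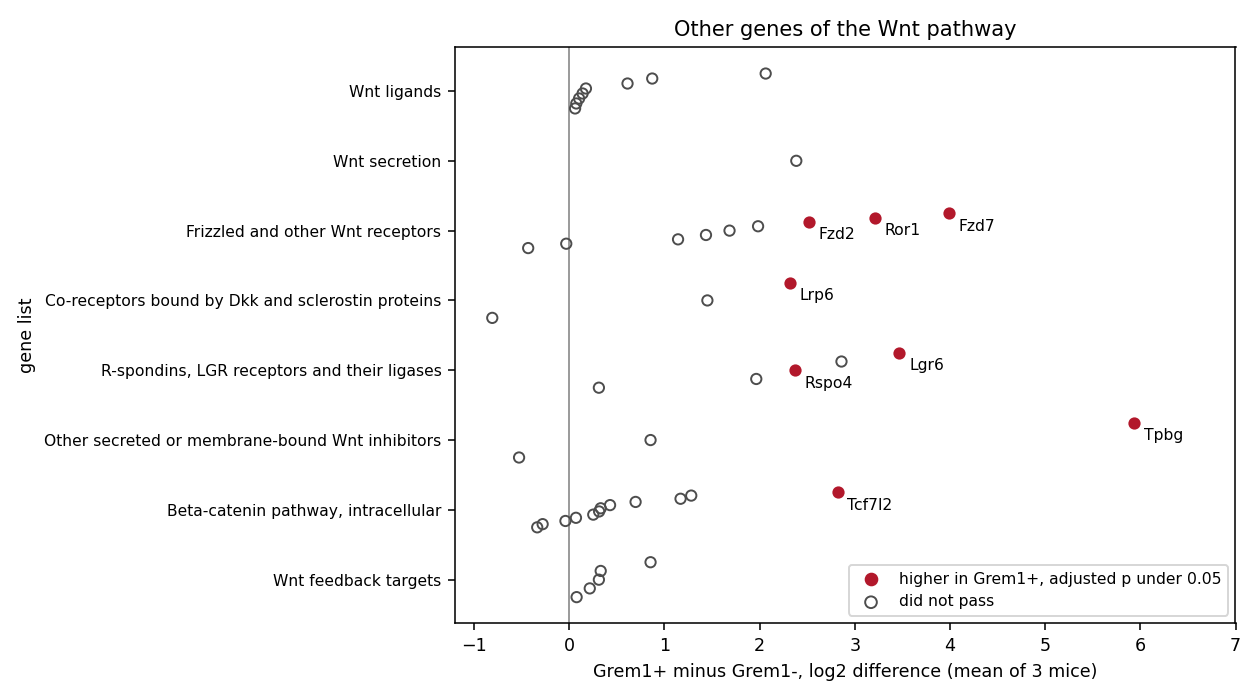
Grem1+ minus Grem1- log2 difference (horizontal axis, mean of 3 mice) of the tested Wnt pathway genes in 8 lists (rows), each gene by its brightest probe set, filled red and named where higher at an adjusted p under 0.05 and open grey where it did not pass. Tpbg lies at 5.94 and Fzd7 at 3.99, the intracellular components and feedback targets lie mostly near 0, and Lef1, Apcdd1 and Znrf3 appear in 2 lists each.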

How the data were processed

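The authors deposited 1 log2 expression value for each probe set and array. GCRMA is named in the submitters' processing notes. The sources used here do not give its version or settings. That the scale is log2 was inferred from the range of the values. Per the labels' protocols, total RNA was amplified before biotin labelling. Genes were named from the platform annotation. Probe sets with several symbols (932) or none here (9160) and 64 control probe sets were not tested.

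Differences are Grem1+ minus Grem1-, fitted with limma 3.58.1 (R 4.3.3, lmFit and eBayes, two-sided, Benjamini-Hochberg over 18157 probe sets, 2 residual and 2.28 prior degrees of freedom), with the mouse as a block. Per the series design text each mouse gave both fractions, and the title numbers were taken as the mice. Deviations from the group means correlated at 0.01, 0.05 and 0.03 between same-numbered arrays, so the pairing rests on that text. Scanner files were not analysed here, and the number of arrays limits the precision. The fit was tested on simulated data under 2 noise models, and recovery was lower with each probe set's own spread than with limma's moderated spread. Of 50 probe sets each with true differences of 1, 2, 4 and 6, own spread gave 0, 0, 20 and 32 calls. Moderated spread gave 0, 8, 45 and 47. A difference of 2 or less that did not pass is therefore not shown to be absent.

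Where 1 fraction was dim on every array, its arrays were set to log2 4 or their own value if higher, and the fold is a bound. It is a bound on the fold between the measured means and does not take in the spread among mice. The members, lists and naming rule (all members, then from each pathway list up to 4 called genes with the largest difference, or 2 bright ones) were chosen with earlier results of these data known. Axin2, Sox9, Col2a1, Ackr3, Vcam1, Cspg4, Rgs5, Col3a1, Ror2, Ryk, Ctnnb1, Csnk1a1 and the genes named as dim were named after their values were seen. Alternatives covered the block, the filter, the floor, normalization, probe set choice, the variance model and leaving out each mouse.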

Additional observations from a re-analysis of the deposited data

How the results depend on the processing

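Without the replicate block 2329 probe sets were called higher and 1876 lower, against 1826 and 1409 with it, and all 3 member calls passed either way. The filter mattered more: without it 1095 probe sets were higher, 666 lower and 2 member probe sets called, since Dkk3 1417312_at was lost, and 1 other Wnt pathway gene was called against 8. With 1 probe set a gene 1191 were higher and 864 lower, since fewer were tested. With the replicate block and any mouse left out, which leaves 1 residual degree of freedom fewer, 0 probe sets, members or pathway genes were called in limma, while 4967 to 5158 probe sets and 3 to 4 members had an unadjusted p under 0.05. The differences stayed between 6.42 and 6.59 for Frzb 1416658_at, 5.47 and 5.78 for Wif1 and 2.20 and 3.08 for Dkk3 1417312_at, with adjusted p-values of 0.0516 to 0.0637 for Frzb and Wif1 and 0.0804 to 0.0979 for Dkk3. Without the replicate block, leaving out a mouse gave 1114, 1176 and 1122 higher and 761, 751 and 796 lower probe sets for mice 1, 2 and 3, 2 to 3 members and 2 to 6 pathway genes. Here Frzb and Wif1 passed each time and Dkk3 passed only without mouse 3 (limma adjusted p = 0.0475). Without probe sets that may read several transcripts, 2 member probe sets were called, since that of Wif1 is left out. Differences that had not passed changed sign for Sfrp2 without mouse 2 (-0.73) and for Dkk3 1448669_at without mouse 1 (-0.16) or mouse 2 (-0.30), and the causes were not tested. Wls differed by 3.56 and passed without mouse 1 and without the block (limma adjusted p = 0.0298). Readings for pathway genes under these settings were chosen after seeing the data.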
